A study of Mus musculus with 2 samples.

Results

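The genes described here make cholesterol and fatty acids, or control that synthesis. They were chosen by name: 37 genes, of 27962 gene names on the array, whose names the second tumour's scanner file gives to 70 spots among 43379 non-control spots. The naming rule itself uses no measured value, though the list was drawn up with earlier results of these data known. Expression was measured in 2 tumours of the mouse line RMS3, classed in the labels as PRMS with no spelled-out form. For each tumour, 1000000 RMS3 cells in 200 µl of phosphate-buffered saline were placed under the skin of male C57BL/6J hosts, and the tumour was removed 2 weeks afterwards. All material thus comes from 1 cell line in 1 host strain, with no cultured RMS3 cells, normal tissue or treated group beside it, and the labels name no genetic change in line or host. The treatment text calls the harvested tumours metastatic, while the other labels describe tumours at the injection site. The labels number the tumours without saying whether they came from separate mice, so their spread may be partly technical.

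Cholesterol is built from acetyl-CoA through mevalonate, farnesyl diphosphate, squalene and lanosterol, and fatty acids are built from acetyl-CoA through malonyl-CoA. Both routes are under the control of the SREBP transcription factors, which sit in the endoplasmic reticulum as precursors held by Scap and Insig proteins. When membrane sterol falls, Scap carries the precursor to the Golgi, where cleavage frees the active factor to switch on the synthesis genes. Growing tumour cells need both products for new membranes.

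With 1 single-colour array per tumour, every difference sets 1 tumour against 1 tumour and has no replicate check, no test and no p-value. A level is the log2 signal minus the 75th percentile of its array. Levels compare the same probe between tumours, not different genes. A difference is tumour 2 minus tumour 1 on that log2 scale, so 1 equals 2-fold. Array 1 carries 1128 spots with an outlier flag against 69 on array 2, and repeat spots of the same probe varied there with an SD of 0.59 (log2) against 0.08. Values therefore leave out spots lying no more than 2 rows and columns from such a flag on array 1, or from a high-background spot on array 2, unless spots near flags are named. Values read near a flag are scaled over all unflagged spots, where the median difference of all genes was -0.18, against -0.01 away from flags. The 2 scales are not set against each other directly. Away from flags, repeat spots varied with an SD of 0.23 and 0.09. This gives a difference from 1 spot a technical SD of 0.24, which does not cover variation between arrays.

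Nearly the whole route from acetyl-CoA to cholesterol and to long unsaturated fatty acids was transcribed in both tumours, with most genes within 1.5-fold. Of the 37 genes, 30 had at least 1 spot away from flags, and these 30 were well above background on both arrays. Over all gene names the share was 61.3%, and over names with a RefSeq accession it was 72.2%. With spots near flags the count was 36 of 37. The share over all genes under that rule was not computed, so this count cannot be read as a trait of these genes. The exception, Acly, had its 2 probes near flags. Of the 30 measured genes, 1 was at least 2-fold higher in tumour 2 (Lss), against 2.56% of all genes, and 0 were at least 2-fold higher in tumour 1, against 3.82% (6.38% in either direction). With all unflagged spots, 2 were at least 2-fold higher in tumour 2 (Fads1 and Idi1, with 5.06% of all genes) and 0 in tumour 1 (6.27%). Another 1 away from flags, Acsl3, was more than 1.5-fold apart, so that 28 of 30 lay within 1.5-fold, where 20.3% of all genes lay outside it. Of the brighter 50% of all genes, 88.2% lay within 1.5-fold.

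**Figure D1:**
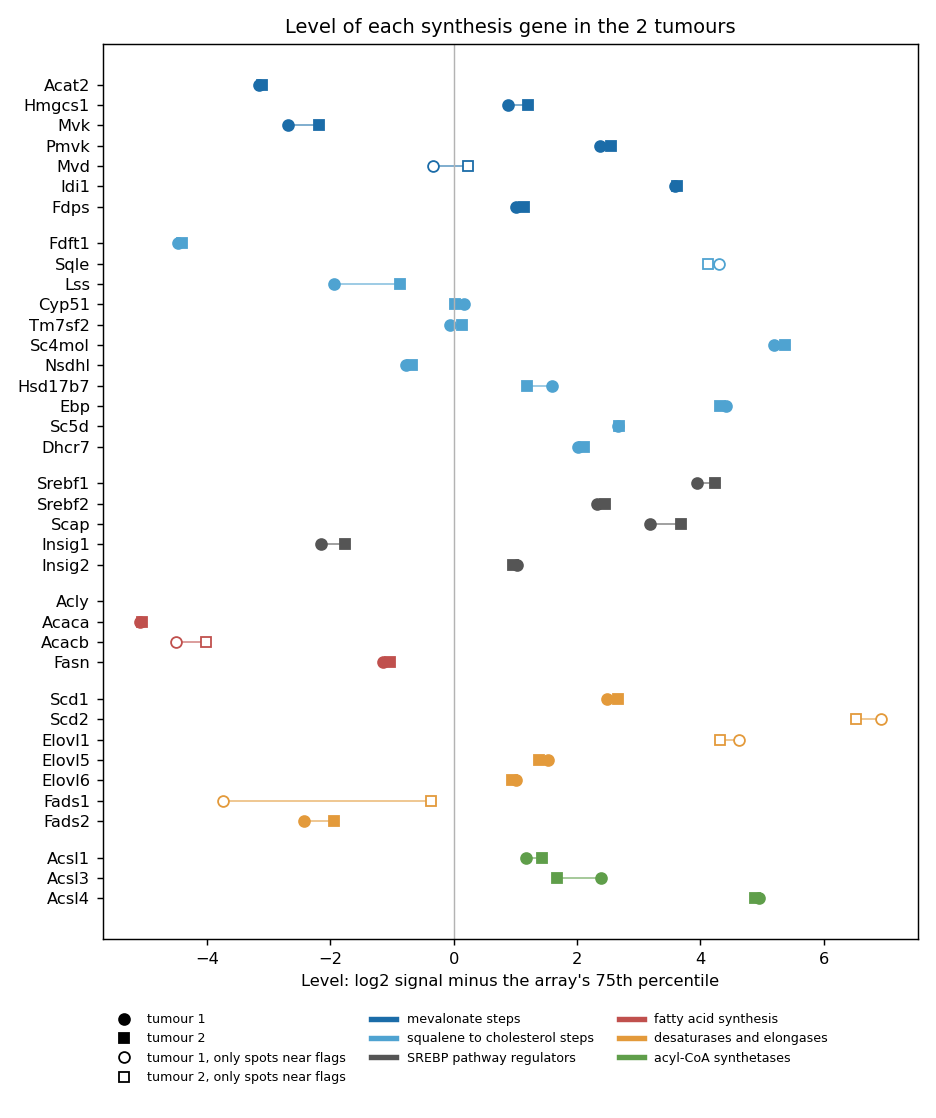
Level of each gene (x axis, log2 signal minus the array's 75th percentile) in tumour 1 (circles) and tumour 2 (squares), coloured by step of the pathway. Open symbols are genes with spots near flags only, and Acly has no pair of levels. The symbols of most genes touch. The filled pairs farthest apart are those of Lss and Acsl3, by 1.06 and 0.71. The widest open pair is that of Fads1, by 3.37.

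In the mevalonate steps, 6 of 7 genes were measured away from flags, and their differences ran from 0.02 to 0.51 with a median of 0.16. Hmgcs1, which makes HMG-CoA from acetoacetyl-CoA, lay at 0.88 in tumour 1 and 1.20 in tumour 2 (1.04 ± 0.23, SD, n = 2). Its 2 probes gave 0.30 and 0.35, slightly above the technical SD. Acat2, the cytosolic thiolase that supplies acetoacetyl-CoA, lay at -3.15 and -3.11, a gap below the technical SD. Mvk, mevalonate kinase, was the farthest apart of this group, with levels of -2.69 and -2.18 in tumours 1 and 2 and thus 0.51 (1.42-fold) between them. Its probes read 0.30 and 0.71, so the size of the gap depends on the probe while its direction does not. The next kinase, Pmvk, lay at 2.37 and 2.55, and the differences of its 2 probes were 0.01 apart. Idi1, the isomerase that makes dimethylallyl diphosphate, had the closest pair of levels in the group at 3.59 and 3.62. Fdps, which makes farnesyl diphosphate, lay at 1.01 and 1.14, but its probes disagreed in direction, with -0.27 for one and 0.55 for the other. Mvd, the decarboxylase between Pmvk and Idi1, was read from a spot near a flag alone, at -0.34 in tumour 1 and 0.24 in tumour 2.

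In the steps from squalene to cholesterol, 10 of 11 genes were measured away from flags, with a median difference of 0.05 and a range of -0.40 to 1.06. Lss, lanosterol synthase, closes the squalene chain into the first sterol ring system. It lay at -1.93 in tumour 1 and -0.87 in tumour 2 (-1.40 ± 0.75, SD, n = 2), and the difference was 1.06 (2.09-fold). Both of its probes away from flags were higher in tumour 2, by 0.94 and 1.19. The remaining Lss probe, near a flag, gave -0.02, and with all unflagged spots the gene's difference was 0.74 (1.67-fold), short of 2-fold. The call also ended with normexp background correction (0.82) and with the brightest probe (0.94). The neighbours of Lss in the route were within 1.5-fold. Fdft1, squalene synthase, lay at -4.47 and -4.41. Sqle, squalene epoxidase, whose spot lies near a flag, lay at 4.31 and 4.12. Cyp51, the demethylase that acts on lanosterol, lay at 0.17 and 0.02, with probes from -0.15 to 0.54.

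The enzymes that trim lanosterol to cholesterol were level between the tumours, with 1 mild exception. Tm7sf2, a sterol reductase, lay at -0.07 and 0.14. Sc4mol, the methyl oxidase now named Msmo1, lay at 5.20 and 5.37. Nsdhl, which works with it to remove methyl groups at carbon 4, lay at -0.78 and -0.67. These gaps were below the technical SD. Hsd17b7, the ketoreductase of the same step, was lower in tumour 2, at 1.59 in tumour 1 and 1.19 in tumour 2 (-0.40). Its other probe, near a flag, gave -0.19 on the scale of all unflagged spots, where the median of all genes was -0.18. On that scale the probe away from flags gave -0.60, so the lower value rests on 1 probe. Ebp, the sterol isomerase, lay at 4.41 and 4.32, Sc5d, the desaturase, at 2.66 and 2.68, and Dhcr7, the last reductase, at 2.02 and 2.11. The differences of these 3 were below the technical SD.

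The regulators leaned towards tumour 2. Of the 5, 4 were higher in tumour 2, and the median difference was 0.28, against -0.01 for all genes, of which 48.4% were higher in tumour 2. Scap, the sterol-sensing escort, lay at 3.18 in tumour 1 and 3.68 in tumour 2 (3.43 ± 0.35, SD, n = 2), a 1.41-fold gap from 1 probe. Insig1, the anchor protein that is itself a target of SREBP, lay at -2.15 and -1.76, with its probes at 0.24 and 0.56. Srebf1, which favours fatty acid genes, lay at 3.95 and 4.23. Srebf2, which favours sterol genes, lay at 2.32 and 2.46, and its 3 probes spanned 0.05 to 0.15. Insig2, the anchor that does not depend on SREBP in the same way, lay at 1.03 and 0.96, with probes on either side of 0. Scap, Insig1 and Srebf1 exceeded the technical SD, and all 5 genes stayed within 1.5-fold. The lean is small. With all unflagged spots, 3 of 5 were higher in tumour 2, against 33.8% of all genes. The median of the regulators was then 0.08, beside a median of -0.18 over all genes. It lay 0.26 above the median of all genes there and 0.29 above it away from flags.

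Fatty acid synthesis was measured more thinly. Of its 4 genes, 2 had spots away from flags. Fasn, the synthase itself, lay at -1.15 and -1.04 with the probe away from flags, and its probe near a flag gave 0.18. Acaca, the carboxylase that commits acetyl-CoA to fatty acids, lay at -5.09 and -5.05 as the median of 3 probes. Its brightest probe away from flags lay at -2.47 and -2.17, a gap of 0.31 that is above the technical SD. The other 2 probes, at 0.04 and -0.05, were dim, where the lowest level called above background was -5.78 in tumour 1 and -6.33 in tumour 2. Acacb, the carboxylase of the mitochondrial surface, had a usable spot near a flag only, at -4.51 and -4.02. Acly, which cuts citrate into acetyl-CoA, read 1.10 in tumour 2 with 1 probe and was not well above background in tumour 1. As read, this is at least 107-fold higher in tumour 2, a bound that sets the signal against the lowest level called on array 1. The spot lies near a flag of array 1, and the other Acly probe was above background on neither array.

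Among the desaturases and elongases, 4 of 7 genes were measured away from flags, and 2 were higher in each tumour. Scd1, the stearoyl-CoA desaturase that makes oleate, lay at 2.48 and 2.67. Its paralogue Scd2, read near a flag, lay at 6.93 and 6.52. Elovl5 and Elovl6, which lengthen polyunsaturated and saturated chains, differed by -0.15 and -0.07. Elovl1, read near a flag, differed by -0.30 on the scale of all unflagged spots, where Elovl5 and Elovl6 differed by -0.35 and -0.27. Fads2, the delta-6 desaturase that opens the polyunsaturated route, lay at -2.43 in tumour 1 and -1.94 in tumour 2 (-2.19 ± 0.35, SD, n = 2). Its partner Fads1, the delta-5 desaturase, was 10.3-fold higher in tumour 2 as read, at -3.75 and -0.37, but from 1 spot near a flag.

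The acyl-CoA synthetases, which activate fatty acids for use, held the lowest difference of the 30 genes. Acsl3, found on lipid droplets and the endoplasmic reticulum, lay at 2.39 in tumour 1 and 1.68 in tumour 2 (2.03 ± 0.50, SD, n = 2). The difference of -0.71 (1.63-fold) rests on 1 probe, and it lay between -0.70 and -0.91 over the alternatives tried. Acsl1, the form of muscle, liver and fat, lay at 1.18 and 1.43. Acsl4, which prefers arachidonate, lay at 4.95 and 4.89.

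**Figure D2:**
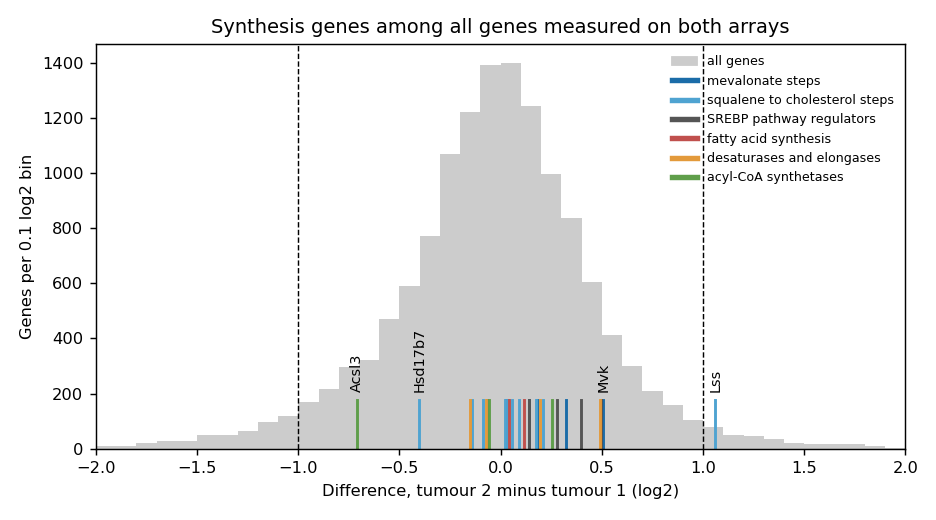
Histogram of the difference of all 13647 genes measured on both arrays (x axis, log2, tumour 2 minus tumour 1; y axis, genes per bin; axis cut at 2 on either side), with a coloured tick for each of the 30 synthesis genes and dashed lines at 2-fold. The ticks crowd near 0, with Lss alone beyond a dashed line at 1.06 and Acsl3 lowest at -0.71.

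The differences of the 30 genes had a median of 0.10 and an SD of 0.31, while all 13647 genes had a median of -0.01 and an SD of 0.55. Dim genes scatter more, and the brighter 50% of all genes had an SD of 0.45. Of the 30 genes, 10 differed by more than the technical SD of 1 spot (33.3%), against 54.3% of all genes and 45.1% of the brighter 50%. These 10 were Hmgcs1, Mvk, Lss, Scap, Insig1, Srebf1, Fads2 and Acsl1, higher in tumour 2, and Hsd17b7 and Acsl3, higher in tumour 1. In total 22 of 30 were higher in tumour 2, against 48.4% of all genes, but 16 of 36 were with all unflagged spots, where the share of all genes dropped to 33.8%. The sterol genes had a median of 0.08 over 16 genes and the fatty acid genes 0.04 over 9.

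Probes of the same gene show how far a value of this size can be read. Of the 14 genes with at least 2 probes away from flags, 6 had probes on both sides of 0: Fdps, Cyp51, Nsdhl, Insig2, Acaca and Acsl4. The same held for 42.2% of all genes with several probes. The gap between a gene's highest and lowest probe had a median of 0.28 and was widest for Fdps, at 0.82. Some spots near flags gave much larger gaps. Of the 22 probes of these genes near flags, 6 read at least 2-fold higher in tumour 2, against 1 of the 48 probes away from flags. The same shares over all spots of the array were not computed, so these counts cannot be read as a trait of these genes. Values near flags are scaled over all unflagged spots, where the median of all genes was -0.18, against -0.01 away from flags. Idi1 read 3.07 near a flag and 0.02 away from it. Srebf2 read 3.05 near a flag, where it was not well above background in tumour 1, and 0.14 away from it. Sc5d read 1.57 and 0.02, and the median of the spots around that Sc5d spot near a flag was itself 1.23. For Hmgcs1 the probe near a flag read 1.13. Around the 48 probes away from flags, the local median lay between -0.17 and 0.09. The values of Fads1 and Acly have no probe away from flags to set beside them.

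**Figure D3:**
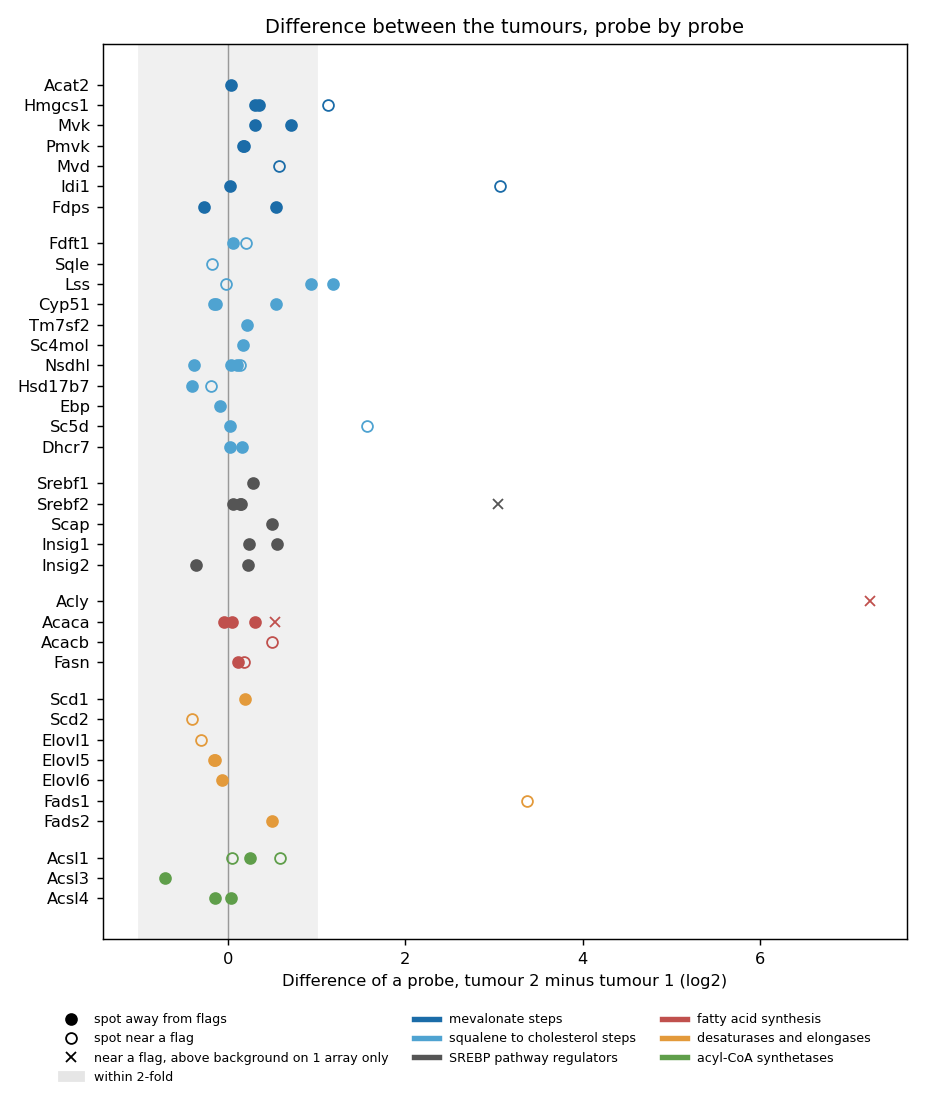
Difference of each probe (x axis, log2, tumour 2 minus tumour 1) for each gene, filled where the spot lies away from flags, open where it lies near a flag and crossed where such a spot was above background on 1 array only; the grey band is 2-fold. Filled points reach from -0.71 to 1.19, while open and crossed points reach 3.37 for Fads1 and 7.24 for Acly.

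The start regions of these genes show what they share in sequence. Those of Lss, the farthest apart, Hmgcs1, a textbook SREBP target, and Insig1, its feedback target, are printed as the 250 bases before the start of the gene. The sequences are from the RefSeq promoter table of GRCm38.p6, in the direction of the gene. Capitals mark matches, on either strand, to 4 short motifs: TCACNCCAC, the core of an SREBP element; CACGTG, an E-box; CCAAT, bound by NF-Y; and GGGCGG, a GC box.
Lss (chr10:76531355-76531604, + strand): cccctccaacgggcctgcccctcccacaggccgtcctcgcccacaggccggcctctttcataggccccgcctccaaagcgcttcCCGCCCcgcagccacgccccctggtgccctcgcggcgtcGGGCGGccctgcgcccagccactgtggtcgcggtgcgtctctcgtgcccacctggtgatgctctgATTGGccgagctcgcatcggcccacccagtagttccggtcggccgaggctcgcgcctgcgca
Hmgcs1 (chr13:119690101-119690350, + strand): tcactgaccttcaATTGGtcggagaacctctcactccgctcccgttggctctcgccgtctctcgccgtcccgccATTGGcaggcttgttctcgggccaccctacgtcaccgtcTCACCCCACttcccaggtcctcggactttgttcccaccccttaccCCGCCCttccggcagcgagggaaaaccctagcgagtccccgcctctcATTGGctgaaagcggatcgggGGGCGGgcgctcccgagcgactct
Insig1 (chr5:28071162-28071411, + strand): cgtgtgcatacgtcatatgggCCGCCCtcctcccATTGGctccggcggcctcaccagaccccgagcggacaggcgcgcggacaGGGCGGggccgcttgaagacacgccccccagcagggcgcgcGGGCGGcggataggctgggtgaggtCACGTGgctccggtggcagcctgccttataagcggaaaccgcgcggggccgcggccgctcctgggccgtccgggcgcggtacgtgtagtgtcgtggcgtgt
None of the printed matches to 1 motif overlaps a match to another. Hmgcs1 holds the SREBP core, starting 137 bases before the gene, together with 3 CCAAT boxes and 2 GC boxes. Insig1 holds 1 E-box, starting 101 bases before the gene, with 1 CCAAT box and 3 GC boxes. Lss holds 1 CCAAT box, starting 62 bases before the gene, and 2 GC boxes, with no match to the SREBP core or the E-box in this window.

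Windows in the table matched 31 of the 37 genes by symbol, and Fads1, Fdft1, Fdps, Scd1, Scd2 and Sqle were not matched. Some genes have several windows. Of 41 windows of these genes, 25 (61.0%) held CCAAT, against 33.9% of all 32841 windows, and 29 (70.7%) held GGGCGG, against 32.7%. The E-box was in 6 windows (14.6%, against 6.02%) and the SREBP core in 2 (4.88%, against 1.05%), those of Hmgcs1 and Acsl1. The windows of these genes were also richer in G and C, with a median of 62.8% against 52.4%. A match is a description of letters, not of binding.

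Genes of the opposite process, sterol efflux under the LXR receptors, leaned towards tumour 1. Of 12 listed, 8 were measured, and 2 of these were higher in tumour 2, against 48.4% of all genes, with a median of -0.36. With all unflagged spots 4 of 11 were higher in tumour 2, against 33.8% of all genes. Mylip, a ubiquitin ligase induced by LXR, had a level of 2.29 in tumour 1 and of 1.27 in tumour 2, which gives -1.02 (2.03-fold) from 1 probe. With no detection filter, or with the scanner's positive-and-significant call, it was -0.43. Abca1, the cholesterol exporter, lay at 2.82 and 2.44 (-0.39). Rxra, the receptor partner of LXR, was 0.27 higher in tumour 2. The median of the efflux list kept its sign in the 12 alternatives in which it was computed, from -0.40 to -0.20. Genes that supply NADPH, acetyl-CoA and cofactors were higher in tumour 2 in 6 of 7 measured cases, against 48.4% of all genes, with a median of 0.37. That median was 0.21 with normexp. With all unflagged spots it was 0.11, beside a median of -0.18 over all genes, and 6 of 8 were higher in tumour 2, against 33.8% of all genes. The list lay 0.29 above the median of all genes there and 0.38 above it away from flags. Pgd, of the pentose phosphate route, was 0.40 higher in tumour 2 away from flags. Idh1, at 0.51, was the largest gap, while Me1, malic enzyme, differed by -0.12.

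**Figure D4:**
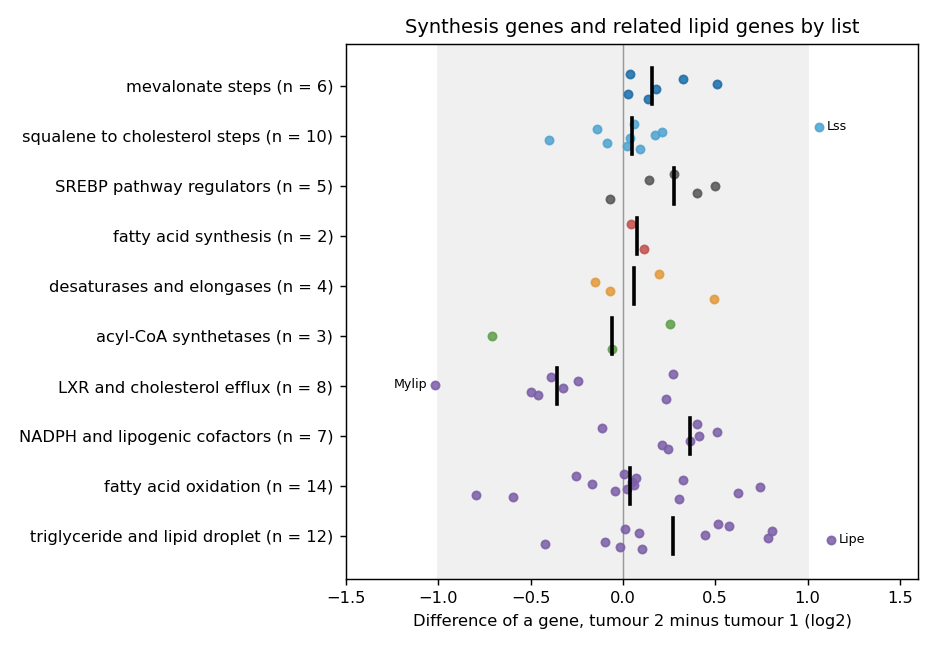
Difference of each measured gene (points; x axis, log2, tumour 2 minus tumour 1) by list, with the number measured and the median as a black bar; the grey band is 2-fold. Lss and Lipe lie beyond 2-fold towards tumour 2 and Mylip towards tumour 1, and the medians run from 0.37 for the NADPH and cofactor genes to -0.36 for efflux.

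**Figure D5:**
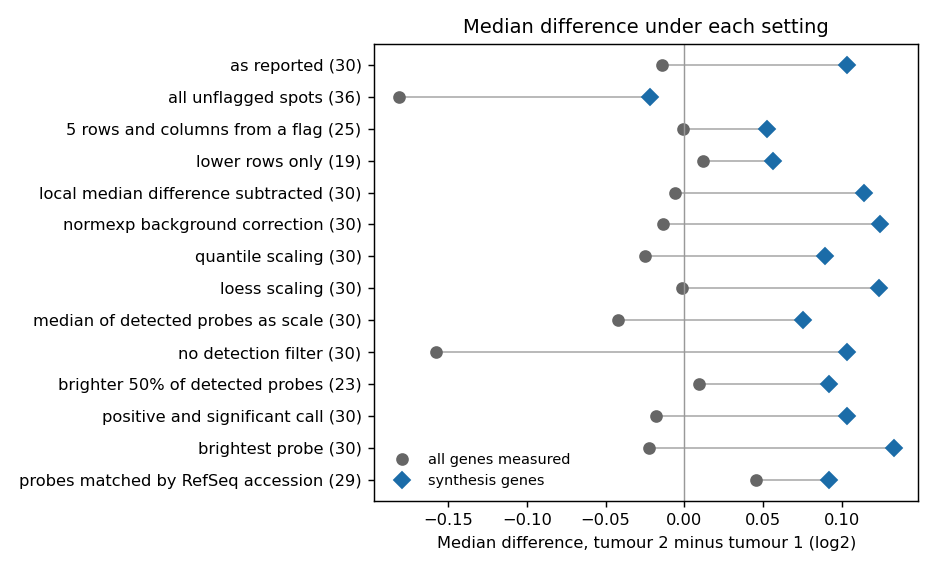
Median difference (x axis, log2, tumour 2 minus tumour 1) of the synthesis genes (diamonds) and of all genes measured (circles) under each way of processing, with the number of synthesis genes measured in parentheses. The diamonds lie to the right of the circles in every row, by 0.04 to 0.26, and the diamond falls to -0.02 where all unflagged spots are used. The 0.26 is the row with no detection filter, where the circle includes undetected genes.

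The tumours are mixtures, so markers of other cell types are given beside these values. In bulk RNA, fewer cells of a type and less RNA per cell cannot be told apart. Summed linear signals, in units of the 75th percentile, are given for each list as a description, and they follow the brightest probes of the list. All 10 muscle lineage markers with spots away from flags were above background on both arrays. Of these, 8 were higher in tumour 2 and 2 in tumour 1, from -0.48 to 1.24 with a median of 0.50, and their summed signal was 5.94 in tumour 1 and 10.6 in tumour 2. Des, the muscle intermediate filament, and Myh3, the embryonic myosin, were the 2 markers past 2-fold. Of 10 adipocyte markers with such spots, 4 were detected on both arrays, 1 in tumour 1 alone and 3 in tumour 2 alone. Of the 4, Cfd and Fabp4 differed by -1.69 and -0.41, and Car3 and Pparg, the last named after its values were seen, were higher in tumour 2, by 1.10 and 0.70. Their summed signal was 2.30 and 1.87. Of 10 keratinocyte and sebaceous markers, 6 were detected, 4 of them higher in tumour 2 and 2 in tumour 1, with a median of 0.49. Krt5 and Krt14, basal keratins, were higher in tumour 2 by 3.55 and 3.64, while the other 4 lay between -0.56 and 0.81 and Krt1 differed by -0.09. The median of this list was -0.02 with all unflagged spots, and its summed signal was 13.6 and 15.4. Scd3, the sebaceous desaturase, named after its values were seen, was above background on neither array. Macrophage markers (8 of 9 detected; sums of 12.5 and 11.2), fibroblast markers (8 of 8; 131 and 109) and endothelial markers (7 of 7; 4.43 and 2.72) had medians of -0.12, -0.39 and -0.39. Of 5 hepatocyte markers with such spots, 0 were detected on both arrays. The part of these cells in the differences above was not tested.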

How the data were processed

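The 2 Agilent arrays were read with Feature Extraction. Its version is 9.1.3.1 by the deposited scanner files and 8 by the notes of the submitters. The authors' processed signal, an intensity on a linear scale, had spatial and multiplicative detrending switched on, per the file headers. The deposited table of values equals it at all 45018 spots, and its 75th percentile was 894.5 on array 1 and 948 on array 2. On these arrays 62.3% and 66.1% of non-control spots were well above background, and their number limits the precision.

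From these, log2 signals minus the 75th percentile were computed. Flagged spots, spots within 2 rows and columns of a flag of array 1 or of 1 of 11 high-background spots of array 2 were left out, repeat spots averaged, and a gene's difference taken as the median over its detected, unsaturated probes. Detection of a probe required 50% or more of its spots to be well above background.

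1 list of related genes is not reported here. The members and lists were chosen with earlier results of these data known. Every member could be named, and of the other lists the first 4 genes and those at least 2-fold apart. Of 178 listed names, 164 were found by name and 13 by RefSeq accession. Alternatives used normexp (limma 3.58.1, R 4.3.3, offset 50), quantile and loess scaling (span 0.3), other spot, probe and detection rules, and Python 3.11.15. The steps were checked on simulated arrays.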

Additional observations from a re-analysis of the deposited data

How the results depend on the processing

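Over the 13 alternatives, the median difference of the synthesis genes lay between -0.02 (all unflagged spots) and 0.13 (brightest probe). It was 0.04 to 0.26 above the median of all genes. The 0.26 came with no detection filter, where undetected genes entered and took the median of all genes to -0.16, while the synthesis genes stayed at 0.10. The largest gap of the other alternatives was 0.16, with all unflagged spots. A signed median gives the centre of the differences, not their size. Of 366 values of single genes under alternatives, 356 moved by less than the technical SD and 10 by more. With no detection filter or the positive-and-significant call no value could move, because all 48 probes away from flags were already detected. Only 10 of the 30 genes differed by more than the technical SD, so a change of direction can count as a small move. The tally is therefore no measure of stability. In each alternative that measured them, 17 of 30 genes kept their direction. The count at least 2-fold higher in tumour 2 (Lss) was 2 with all unflagged spots (Fads1 and Idi1, not Lss), with 5.06% of all genes. It was 0 in the lower rows (1.86% of all genes), with normexp (1.20%), with the brighter 50% of probes (1.41%) and with the brightest probe (2.35%). At such shares a count of 0 says little about these genes. The lower rows hold no Lss probe. The brighter 50% and brightest-probe settings used only the Lss probe at 0.94. With all unflagged spots the Lss probe near a flag, at -0.02, entered, and the median of all genes was -0.18. With normexp Lss was 0.82, and the cause there was not tested. In the lower rows alone, which hold 19 of the genes, 19 were detected and 12 (63.2%) were higher in tumour 2, against 51.3% of all genes there. The share of all genes detected in those rows was not computed. Without either tumour, detection on the other array alone gave 30 and 30. This follows from their detection on both arrays and is no separate check. No paired analysis was possible because both tumours belong to 1 group. Signal over background limits 2 of the 3 Acaca probes and the Fdft1 probe away from flags, and 7 genes had spots near flags only, of which Acly gave no pair of levels.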

Other observations

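Genes that store and release fat leaned towards tumour 2. Of 12 measured genes for triglyceride synthesis and lipid droplets, 9 read higher there, against 48.4% of all genes, and the list's median was 0.27. The other 3 (Lpl, Mgll and Fabp5, named after their values were seen) differed by -0.42, -0.10 and -0.01. Lipe, hormone-sensitive lipase, had a level of -4.93 in tumour 1 and of -3.80 in tumour 2, which are 1.13 (2.19-fold) apart by 1 probe. Lpin1, which makes diacylglycerol, was 0.57 higher in tumour 2, and its probes ran from 0.50 to 0.77. Agpat2, an acyltransferase of the same route, was 0.52 higher there, with probes at 0.48 and 0.55. Dgat1, which makes triglyceride, was level, at -0.33 and -0.32. With all unflagged spots the median of this list was 0.07 and 6 of 12 were higher in tumour 2, against 33.8% of all genes, beside a median of -0.18 over all genes. Some of these genes are also expressed by adipocytes, whose markers are given above.

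Genes of fatty acid oxidation went both ways, from -0.79 to 0.74 (SD 0.41), with a median of 0.04 over 14 genes and 9 of them higher in tumour 2. Of these genes 71.4% lay within 1.5-fold, against 79.7% of all genes. The ends of the range were Ppargc1a, a coactivator of mitochondrial genes, and Acads, a short-chain dehydrogenase, both named after their values were seen. Cpt1a, the gate of mitochondrial import, lay at -0.33 and -0.32, with probes at -0.26 and 0.27. Its muscle form Cpt1b lay at -4.04 and -4.30, and Cpt2 at 3.30 and 3.37. Of the 14, 0 were 2-fold apart, where 6.38% of all genes were, so a count of 0 says little about the list.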
